A study of Arabidopsis thaliana with 9 samples.

Results

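Class III peroxidase genes were followed across whole roots of Arabidopsis thaliana that were fixed on an F-104 jet flight or on the ground. The set was a list of 60 family loci, of which 53 had a probe set paired with exactly 1 gene, out of 16411 loci measured that way, and each of the 53 had a single such probe set. The other 7 were AT1G05240, AT1G05250, PER4 (AT1G14540), PA2 (AT5G06720), RHS18 (AT5G22410), PER64 (AT5G42180) and RHS19 (AT5G67400), and they are not analysed here. Genes are named by the RefSeq symbol where it differs from the locus.

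RNA from roots was hybridised to 9 AraGene 1.0 ST arrays, 3 in each of 3 groups. Last-actuated roots came from a tube whose fixative, RNAlater, was released once the parabola was over. The parabola gave about 10 s of microgravity and came after about 30 s of climbing at 4 g. First-actuated roots came from a tube released earlier, during the low-altitude acceleration by the labels' protocol, although the series' design text places in-flight release after microgravity without separating the tubes. Ground roots came from a tube released on the ground while the jet was flying. All 3 groups were 10-day-old Wassilewskija seedlings grown under 24 h light that carried the pCaMV35S:14-3-3κ:GFP transgene, driven by a promoter active in most plant cells, and no line without the transgene is analysed here. Each group was a single tube divided into 3 root pools. The p-values reflect only how much pools from the same tube varied, and an effect of the tube cannot be told apart from one of the condition.

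Class III peroxidases are secreted heme enzymes of plants that use hydrogen peroxide to oxidise phenolic compounds, and under some conditions they also release reactive oxygen species. In the wall they polymerise lignin and cross-link structural proteins such as extensins, which stiffens it. Hydrogen peroxide outside the cell comes largely from superoxide made by respiratory burst oxidases of the plasma membrane. In roots the family is known for the lignin of the Casparian strip and vessels, for root hair growth and, under the bHLH factor UPB1, for the balance of reactive oxygen between dividing and elongating cells.

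Values are log2 probe set signals. A probe set was called when its limma p-value, adjusted by the Benjamini-Hochberg method over 17481 named probe sets, was under 0.05. Brightness depends on the probes as well as on the transcript, so levels are compared only within a gene. The array medians lay between 3.27 and 3.35. PYK10, a beta-glucosidase gene typical of roots, was bright on every array, at 12.09 to 12.45. In whole roots, fewer cells of a type and less RNA per cell cannot be told apart.

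In first-actuated roots 3 of the 53 peroxidase genes rose and 7 fell against ground, 18.9% in all. Of all named probe sets in this comparison 4.89% were called, 2.25% up and 2.64% down. In last-actuated roots 1 peroxidase gene rose and 2 fell against ground, 5.66% beside 1.81% of all probe sets, of which 0.927% were up and 0.881% down. Between the flown groups, last-actuated roots had 7 genes higher and 5 lower, 22.6% beside 6.73% of all probe sets, of which 3.58% were up and 3.15% down. In all, 14 genes were called in at least 1 comparison and 39 in none, and 11 were called by the moderated F test over the 3 groups, beside 7.65% of all probe sets. Calls were more frequent among brighter probe sets. Of 35 peroxidase genes with a mean of at least 4 over the 9 arrays, 28.6% were called between first-actuated and ground roots, beside 9.43% of all named probe sets above that level. The shares were 8.57% beside 3.62% between last-actuated and ground roots and 31.4% beside 12.9% between the flown groups. The 60 loci were chosen with earlier results of these data known, so the shares above describe the list and do not test the family. Of 11 further measured family loci, 10 had a mean under 4. Among them 1 was called between first-actuated and ground roots (9.09%) and 0 in the other comparisons.

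The genes of the family differed in both directions, with 30 positive and 22 negative first-actuated minus ground differences. The median log2 difference over the 53 genes was 0.06 for first-actuated minus ground, where the median over all named probe sets was 0.01. It was 0.04 for last-actuated minus ground and -0.05 for last-actuated minus first-actuated. The groups did not overlap in 21 of 53 genes between first-actuated and ground roots, 39.6% beside 20.4% of all probe sets. They did not overlap in 11 genes between last-actuated and ground roots, 20.8% beside 16.6%, and in 21 between the flown groups, 39.6% beside 21.8%. The first-actuated arrays enter both of the comparisons with most calls, and the ground arrays enter both comparisons with ground, so the counts are not independent of each other.

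The downward count in first-actuated roots against ground was 4 in place of 7 without first-actuated replicate 3 or without any one of the ground arrays, and the upward count stayed at 3 or 4 over all left-out arrays. The count between the flown groups was 7 in place of 12 without last-actuated replicate 1, without last-actuated replicate 2 or without first-actuated replicate 3. The 5 lower genes became 1 without last-actuated replicate 2, 2 without last-actuated replicate 1 or first-actuated replicate 3, 3 without last-actuated replicate 3, first-actuated replicate 1 or any ground array, and 4 without first-actuated replicate 2, while the 7 higher genes became 5 or 6. Centring the arrays on their medians gave 7 higher and 3 lower, quantile normalization 6 higher and 3 lower, and a fit of the flown groups alone 6 higher and 1 lower. The count against ground in last-actuated roots was 0 in place of 3 without last-actuated replicate 1 or 2 or ground replicate 2 or 3, and 1 without last-actuated replicate 3, first-actuated replicate 3 or ground replicate 1. Quantile normalization gave 1 higher and 1 lower there. Of the 25 calls on peroxidase genes, 13 held under every alternative setting and every left-out array. These were 7 of 10 between first-actuated and ground roots, 6 of 12 between the flown groups and 0 of 3 between last-actuated and ground roots.

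**Figure D1:**
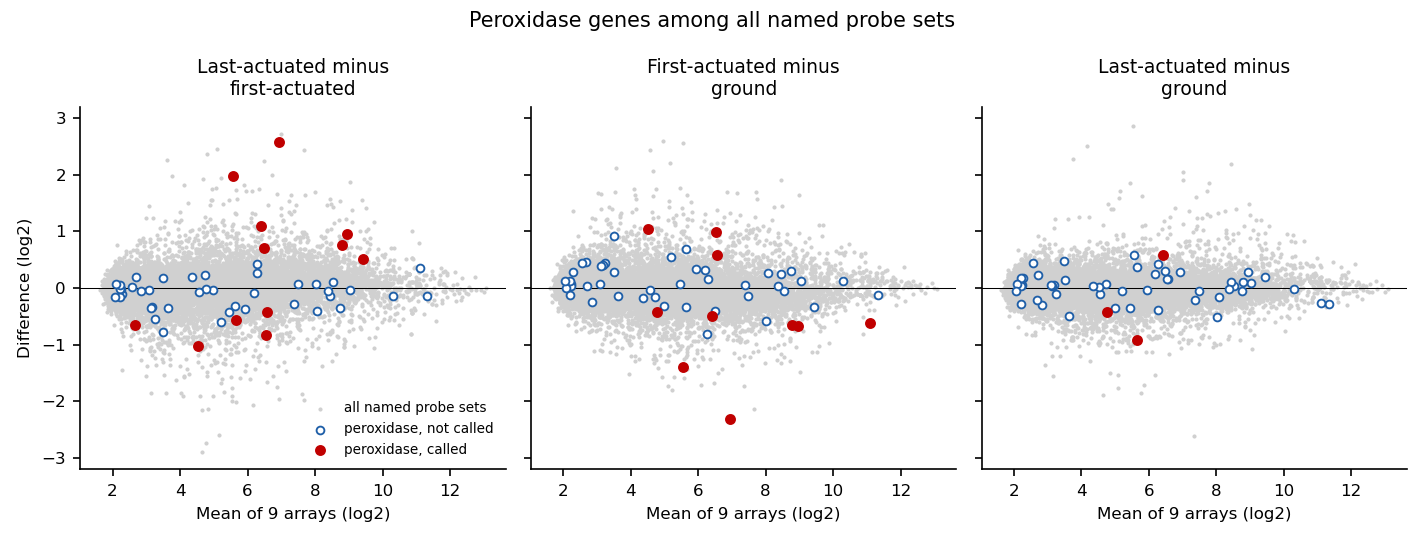
Log2 difference (vertical axis) against the mean log2 value over 9 arrays (horizontal axis) for last-actuated minus first-actuated, first-actuated minus ground and last-actuated minus ground roots. Grey points are named probe sets, open blue circles peroxidase genes that were not called and red circles those called, numbering 12, 10 and 3 in the 3 panels.

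The bright peroxidase genes, those with a mean of at least 8, numbered 13. The threshold fell between AT2G18980, with a mean of 8.02, and AT5G51890, with a mean of 7.49. In first-actuated roots 3 of the 13 fell against ground and 0 rose, 23.1% beside 6.71% of all named probe sets that bright called downward. By limma 0 of the 13 were called between last-actuated and ground roots, beside 6.01% of probe sets that bright called at the same threshold. At an unadjusted p under 0.05 there were 3 of the 13. The share of all probe sets at that unadjusted threshold was not computed, here or for the lists below. Between the flown groups 3 were higher in last-actuated roots and 0 were lower, 23.1% beside 11.1% called upward.

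Prx37 (AT4G08770) encodes a peroxidase whose overproduction is known to restrict growth. Its values were 9.16, 9.54 and 9.40 in last-actuated roots, 8.43, 8.41 and 8.39 in first-actuated roots, and 9.19, 9.10 and 8.96 on the ground. The first-actuated arrays lay below all others, and the last-actuated and ground arrays overlapped. It fell by 0.67 ± 0.11 (SE) in first-actuated roots against ground, to 0.628 of the ground level (limma adjusted p = 0.00679). It was higher by 0.96 ± 0.11 in last-actuated roots than in first-actuated roots, a 1.94-fold difference (limma adjusted p = 0.000798).

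AT5G64100 encodes a peroxidase tied to root hair growth at low temperature. It stood at 9.18, 8.88 and 9.17 in last-actuated roots, 8.26, 8.41 and 8.27 in first-actuated roots, and 8.95, 9.11 and 8.86 on the ground. Again the first-actuated arrays were the lowest without overlap. The change in first-actuated roots against ground was -0.66 ± 0.11 (limma adjusted p = 0.00767), and last-actuated roots exceeded first-actuated roots by 0.76 ± 0.11 (limma adjusted p = 0.00271). Last-actuated minus ground was 0.10 ± 0.11.

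AT4G33420 encodes a peroxidase associated with the lignification of vessels. Its values were 11.17, 11.10 and 11.15 in last-actuated roots, 11.09, 10.52 and 10.74 in first-actuated roots, and 11.36, 11.46 and 11.35 on the ground. The ground arrays were the highest, and first-actuated replicate 1 lay just under the last-actuated arrays. It fell by 0.61 ± 0.13 in first-actuated roots against ground (limma adjusted p = 0.025). Without first-actuated replicate 2 or 3, or any ground array, the call was lost, with adjusted p up to 0.0862 and log2 differences of -0.76 to -0.48 over all left-out arrays.

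AT4G37530, a peroxidase gene for which no particular role is given here, had 9.67, 9.48 and 9.86 in last-actuated roots, 9.20, 9.06 and 9.18 in first-actuated roots, and 9.42, 9.71 and 9.32 on the ground. It was higher by 0.52 ± 0.13 in last-actuated roots than in first-actuated roots (limma adjusted p = 0.0361). That call was lost without last-actuated replicate 1 or 3, any first-actuated array or ground replicate 1, with adjusted p up to 0.13 and log2 differences of 0.43 to 0.62.

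The other 9 bright genes were called in no comparison. PRXR1 (AT4G21960), the brightest, had 11.29, 11.14 and 11.14 in last-actuated roots, 11.32, 11.38 and 11.30 in first-actuated roots, and 11.44, 11.38 and 11.59 on the ground. Its last-actuated arrays lay below the ground arrays, by -0.28 with a 95% interval of -0.48 to -0.08, which did not pass the adjustment (limma adjusted p = 0.2). AT2G18980 had 8.11, 7.88 and 7.66 in last-actuated roots, 7.49, 8.01 and 7.91 in first-actuated roots, and 8.36, 8.44 and 8.37 on the ground. Every flown array of AT2G18980 was below every ground array, with differences of -0.51 ± 0.15 for last-actuated roots (limma adjusted p = 0.15) and -0.58 ± 0.15 for first-actuated roots (limma adjusted p = 0.0538). The second of these passed under 3 alternative settings, with adjusted p of 0.0264 to 0.0392.

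The remaining bright genes included AT5G66390, which acts in lignification, AT5G64120, a gene of wall damage and pathogen responses that also acts in lignification, and AT5G17820, a target of UPB1. AT3G32980 had 10.20, 10.16 and 10.39 in last-actuated roots, 10.22, 10.54 and 10.41 in first-actuated roots, and 10.11, 10.46 and 10.25 on the ground. AT3G21770 had 9.03, 9.02 and 9.12 in last-actuated roots, 9.04, 9.18 and 9.05 in first-actuated roots, and 9.03, 8.92 and 8.94 on the ground. The groups of AT3G32980 overlapped, and the first-actuated arrays of AT3G21770 lay just above its ground arrays. AT3G01190 had 8.72, 8.39 and 8.70 in last-actuated roots, 8.86, 8.99 and 9.04 in first-actuated roots, and 8.62, 9.06 and 8.31 on the ground. Its last-actuated arrays lay under the first-actuated ones, at a difference of -0.36 ± 0.17 that did not pass (limma adjusted p = 0.288), and its ground arrays spanned both. AT4G30170 ranged from 8.32 to 8.42 in last-actuated roots, 8.23 to 8.55 in first-actuated roots and 8.12 to 8.62 on the ground, so the flown arrays lay within the ground range.

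AT5G66390 minus ground was -0.06 in first-actuated roots, with a 95% interval of -0.33 to 0.21, and 0.04 in last-actuated roots, with an interval of -0.23 to 0.31. AT5G64120 was 0.26 above ground in first-actuated roots and -0.15 in last-actuated roots, and AT5G17820 was 0.25 and 0.11 above ground in those groups. Last-actuated minus first-actuated was -0.41 for AT5G64120, with a 95% interval of -0.77 to -0.05. Its flown groups did not overlap, and the difference did not pass the adjustment (limma adjusted p = 0.19). Between the flown groups the 9 genes lay between that value and 0.11. Over the 9 genes the differences from ground lay between -0.58 and 0.30 in first-actuated roots and between -0.51 and 0.11 in last-actuated roots. The lowest bound of a 95% interval in first-actuated roots was -0.91, for AT2G18980, and the highest was 0.68, for AT3G01190, while the interval of AT3G21770 ran from -0.07 to 0.31.

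**Figure D2:**
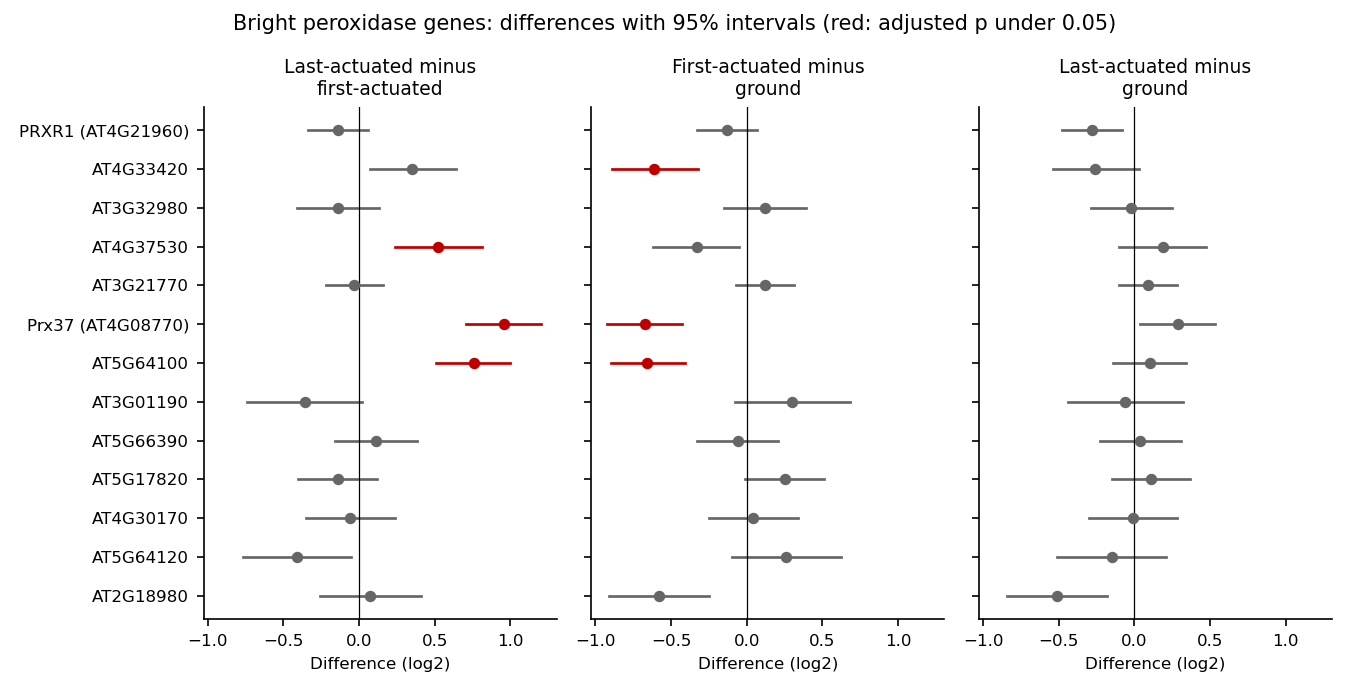
Log2 differences of the 13 bright peroxidase genes with 95% intervals from limma (horizontal axis), genes ordered by mean brightness down the page, for the 3 comparisons. Red marks genes called at an adjusted p under 0.05, namely AT4G37530, Prx37 and AT5G64100 between the flown groups and AT4G33420, Prx37 and AT5G64100 between first-actuated and ground roots.

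A set of 5 peroxidase genes fell in first-actuated roots against ground and was higher in last-actuated roots than in first-actuated roots. Besides Prx37 and AT5G64100 it held AT1G49570, AT5G19890 and AT5G39580. Both comparisons use the first-actuated arrays, so the second direction is not separate evidence of the first. Of all named probe sets 2.64% were called down in the first comparison and 3.58% up in the second. The share called in both was not computed. AT1G49570 had the largest difference of the 53 genes in both comparisons that use the first-actuated arrays, with 7.81, 7.77 and 8.08 in last-actuated roots, 5.61, 5.02 and 5.26 in first-actuated roots, and 7.48, 7.76 and 7.59 on the ground. More than 2 log2 units separated the nearest last-actuated and first-actuated arrays. It fell by 2.31 ± 0.15 in first-actuated roots against ground, to 0.202 of the ground level (limma adjusted p = 9.83e-05). Its difference was 2.59 ± 0.15 for last-actuated minus first-actuated, 6.01-fold (limma adjusted p = 1.93e-05), and 0.28 ± 0.15 for last-actuated minus ground (limma adjusted p = 0.499).

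AT5G19890 stood at 6.47, 6.17 and 6.58 in last-actuated roots, 4.55, 4.57 and 4.17 in first-actuated roots, and 5.57, 5.93 and 5.99 on the ground. The 3 groups did not overlap, with first-actuated lowest and last-actuated highest. It fell by 1.40 ± 0.16 in first-actuated roots against ground, to 0.378 of the ground level (limma adjusted p = 0.000973). Last-actuated roots were 3.95-fold above first-actuated roots (1.98 ± 0.16, limma adjusted p = 9.95e-05) and 0.58 ± 0.16 above ground, which did not pass (limma adjusted p = 0.119).

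AT5G39580, which with AT5G64100 is tied to root hair growth at low temperature and is also known as a pathogen-responsive gene, had 6.84, 6.96 and 7.10 in last-actuated roots. It had 5.76, 6.12 and 5.76 in first-actuated roots and 6.42, 6.42 and 6.31 on the ground. The 3 groups again did not overlap. It was the one peroxidase gene called in opposite directions against ground, up by 0.58 ± 0.12 in last-actuated roots (limma adjusted p = 0.0363) and down, at -0.50 ± 0.12, in first-actuated roots (limma adjusted p = 0.0387). Both calls against ground were lost without most single arrays. The first-actuated call held without last-actuated replicate 3 or first-actuated replicate 2 and was otherwise lost, with adjusted p up to 0.121. The last-actuated call held without first-actuated replicate 1 or 2 and was otherwise lost, with adjusted p up to 0.147. The difference between the flown groups, 1.09 ± 0.12 or 2.13-fold (limma adjusted p = 0.000567), held without each array in turn.

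The opposite pattern was found in 3 genes, which rose in first-actuated roots against ground and were lower in last-actuated roots than in first-actuated roots. Of all named probe sets 2.25% were called up in the first comparison and 3.15% down in the second, and the share called in both was not computed. AT4G26010, a gene of root hair growth, had 6.38, 6.16 and 6.40 in last-actuated roots, 6.82, 7.60 and 7.02 in first-actuated roots, and 6.08, 6.22 and 6.15 on the ground. Its first-actuated arrays were the highest, with replicate 2 above the other pair. It rose by 0.99 ± 0.17 in first-actuated roots against ground, 1.99-fold (limma adjusted p = 0.0093), and was lower by log2 -0.83 ± 0.17 in last-actuated roots than in first-actuated roots (limma adjusted p = 0.0169). The call between the flown groups was lost without any of the last-actuated arrays, with adjusted p up to 0.0707 and log2 differences of -0.99 to -0.61.

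AT2G39040 had 4.11, 3.98 and 4.45 in last-actuated roots, 5.21, 4.94 and 5.49 in first-actuated roots, and 4.01, 4.02 and 4.45 on the ground. Last-actuated and ground arrays were almost level, and the first-actuated arrays lay above both. The gene rose by 1.05 ± 0.18 in first-actuated roots against ground, 2.07-fold (limma adjusted p = 0.00807), and last-actuated minus first-actuated was -1.03 ± 0.18 (limma adjusted p = 0.00672). AT5G15180 rose by 0.58 ± 0.10 in first-actuated roots (limma adjusted p = 0.00724), where its arrays read 6.88, 6.99 and 6.84, against 6.21, 6.38 and 6.40 on the ground. Last-actuated AT5G15180 values were 6.38, 6.48 and 6.59, which overlapped the ground values, and they were lower than first-actuated values by log2 -0.42 ± 0.10 (limma adjusted p = 0.0256). That call was lost without last-actuated replicate 1 or 2 or any first-actuated array, with adjusted p up to 0.0903.

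**Figure D3:**
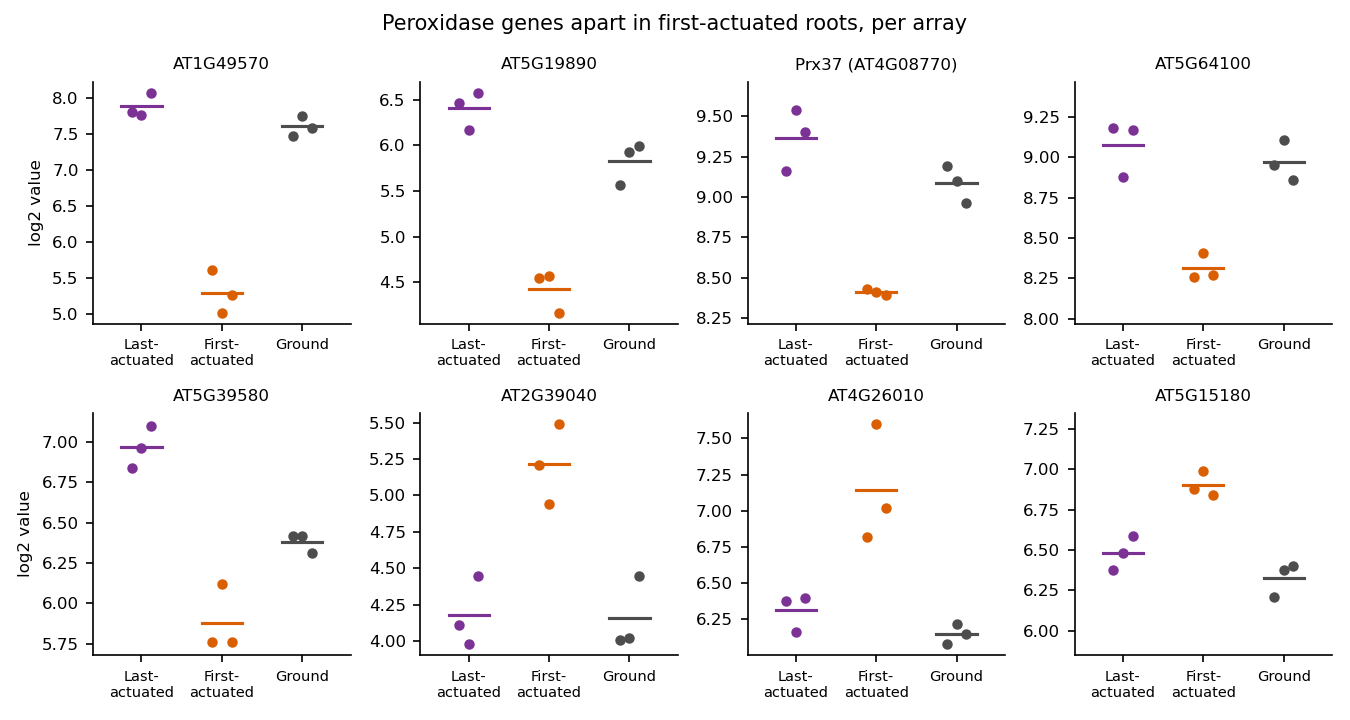
Log2 value of each array (points, 3 in each group) and group mean (bars) for 8 peroxidase genes, with last-actuated, first-actuated and ground roots from left to right and a separate vertical axis for each gene. In AT1G49570, AT5G19890, Prx37, AT5G64100 and AT5G39580 the first-actuated arrays are lowest, and in AT2G39040, AT4G26010 and AT5G15180 they are highest.

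Against ground, 2 genes fell in last-actuated roots. AT1G68850 had 5.05, 4.91 and 5.50 in last-actuated roots, 5.87, 5.55 and 5.76 in first-actuated roots, and 5.96, 6.13 and 6.11 on the ground. The 3 groups did not overlap and last-actuated was lowest. It fell by 0.91 ± 0.15 against ground, to 0.531 of the ground level (limma adjusted p = 0.0119), and was lower by log2 -0.57 ± 0.15 than in first-actuated roots (limma adjusted p = 0.0471). The call against ground was lost without last-actuated replicate 1 or 2 or ground replicate 2 or 3 (adjusted p up to 0.0555). The call between the flown groups was lost without every array but last-actuated replicate 3 (adjusted p up to 0.155).

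AT5G14130 was lower in both flown groups, with 4.69, 4.63 and 4.55 in last-actuated roots, 4.64, 4.69 and 4.59 in first-actuated roots, and 4.98, 5.00 and 5.19 on the ground. The flown groups covered the same range, below the ground arrays. The change was -0.43 ± 0.09 in last-actuated roots (limma adjusted p = 0.0426) and -0.42 ± 0.09 in first-actuated roots (limma adjusted p = 0.0277), with the same ground arrays in both. Without any array the last-actuated call was lost (adjusted p up to 0.152), and without any first-actuated or ground array the first-actuated call was lost (adjusted p up to 0.0869).

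Besides AT4G37530, AT1G71695 and AT4G16270 were called between the flown groups and in neither comparison with ground. Their first-actuated minus ground differences did not pass the adjustment, although the 95% intervals left out 0. These ran from -0.62 to -0.05 for AT4G37530, from -0.79 to -0.02 for AT1G71695 and from 0.08 to 0.84 for AT4G16270. AT1G71695 had 6.82, 7.01 and 6.65 in last-actuated roots, 5.69, 6.41 and 6.26 in first-actuated roots, and 6.62, 6.55 and 6.40 on the ground. It was 0.71 ± 0.17 higher in last-actuated roots than in first-actuated roots (limma adjusted p = 0.0367), with first-actuated replicate 1 far below the other pair. That call held without first-actuated replicate 2 and was lost without each of the other arrays, with adjusted p up to 0.133.

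AT4G16270, known for a role in pollen development and as a UPB1 target in roots, was dim, at 2.67, 2.46 and 2.05 in last-actuated roots, 3.34, 2.82 and 3.01 in first-actuated roots, and 2.72, 2.48 and 2.60 on the ground. These values lie around or below the array medians, where the size of a change is uncertain. Last-actuated minus first-actuated was -0.66 ± 0.17 (limma adjusted p = 0.0455). The call held without last-actuated replicate 1 or first-actuated replicate 2 and was otherwise lost, with adjusted p up to 0.14.

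**Figure D4:**
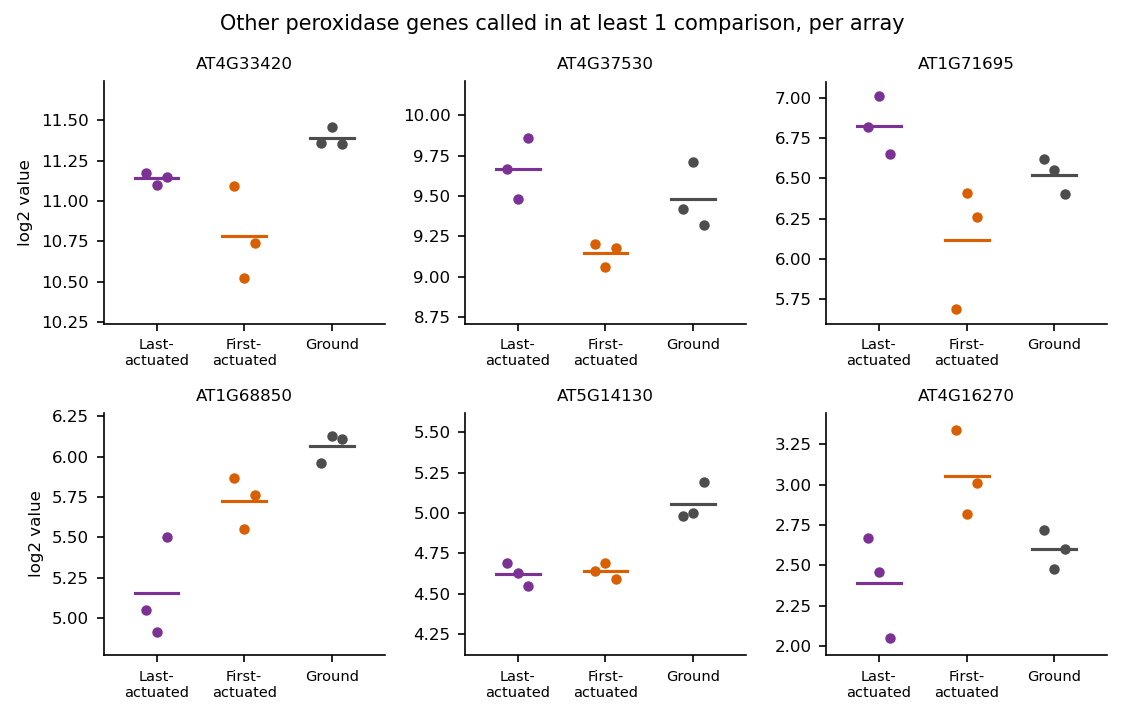
Log2 value of each array (points) and group mean (bars) for the other 6 peroxidase genes called in at least 1 comparison, with last-actuated, first-actuated and ground roots from left to right and a separate vertical axis for each gene. In AT5G14130 both flown groups lie under the ground arrays, and in AT1G68850 the last-actuated arrays are lowest.

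Many peroxidase genes lie side by side. Allowing at most 2 genes between them in RefSeq order, 14 neighbouring pairs were found among the 60 loci and 13 further family loci listed by name, and 9 pairs had both genes measured. In 5 of these pairs exactly 1 gene was called in any comparison, and in 0 pairs both were. Of the 53 genes only 14 were called at all, and no share over all neighbouring genes was computed. The pair counts therefore do not show that neighbours differ more than other genes. Prx37 and its adjacent copy AT4G08780 were both well above the array medians. In first-actuated roots, where Prx37 fell, AT4G08780 had 6.46, 6.05 and 6.21, against 6.26, 5.72 and 6.26 on the ground, with a difference of 0.16 and a 95% interval of -0.28 to 0.60. That interval and the Prx37 interval, -0.92 to -0.43, did not overlap, and the difference between the genes was not itself tested.

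AT5G19880, next to AT5G19890, was dim at 1.91 to 2.49 on all arrays, and its first-actuated minus ground difference was 0.28 where that of AT5G19890 was -1.40. AT4G25980, near AT4G26010, differed by -0.16 in first-actuated roots, where AT4G26010 differed by 0.99. AT5G64100, AT5G64110 and AT5G64120 are consecutive, and their first-actuated minus ground differences were -0.66, 0.05 and 0.26. AT5G64110 was dim, at 3.13 to 3.45. AT4G37520, next to AT4G37530, was dim too, and differed by 0.19 between the flown groups, where AT4G37530 differed by 0.52. Near-identical neighbours can share signal on an array, so values of adjacent copies are less certain than those of single genes.

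**Figure D5:**
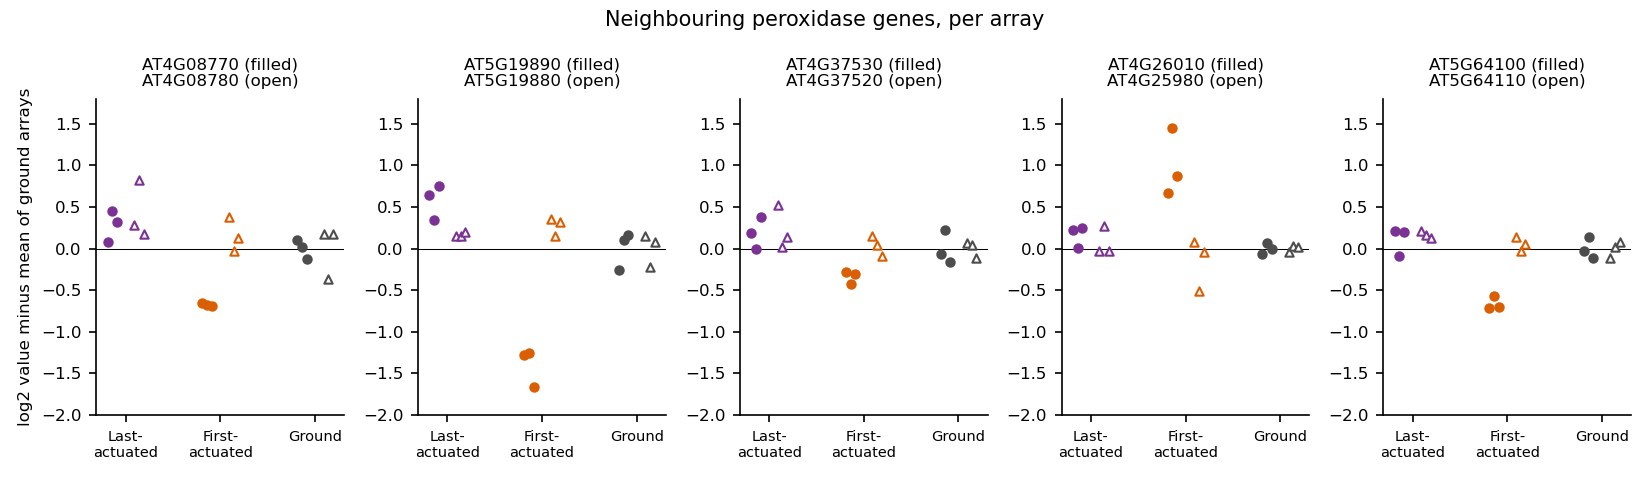
Log2 value of each array minus the mean of the gene's 3 ground arrays (vertical axis) for 5 neighbouring pairs, with last-actuated, first-actuated and ground roots from left to right. Filled circles mark the gene that was called and open triangles its neighbour. In first-actuated roots Prx37 (AT4G08770), AT5G19890 and AT5G64100 lie apart from their neighbours downward and AT4G26010 upward.

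By role, the peroxidases tied to root hair growth had 3 of 6 listed genes measured. In first-actuated roots AT4G26010 rose and AT5G64100 and AT5G39580 fell, so the list did not move one way. Of 9 measured genes of 11 listed for lignin and the Casparian strip, 0 were called by limma in any comparison. Of all named probe sets 4.89% were called between first-actuated and ground roots, 1.81% between last-actuated and ground roots and 6.73% between the flown groups. At such shares 0 calls among 9 genes does not set the list apart. At an unadjusted p under 0.05 the list held 3 genes between first-actuated and ground roots. It held 0 between last-actuated and ground roots and 4 between the flown groups. Over the 53 genes these counts were 24, 10 and 21, and the share of all probe sets at that threshold was not computed. The median of the lignin and Casparian strip list was 0.32 in first-actuated roots against ground, 0.04 in last-actuated roots against ground and -0.32 between the flown groups. Over the 53 genes the medians were 0.06, 0.04 and -0.05. Among its genes AT2G22420 had 4.97, 5.23 and 4.73 in last-actuated roots, 6.26, 5.14 and 5.33 in first-actuated roots, and 5.14, 5.20 and 4.78 on the ground. First-actuated replicate 1 was far the highest, replicate 3 lay just above the other groups and replicate 2 lay within their range. AT2G41480 had 5.89, 5.59 and 5.92 in last-actuated roots, 6.38, 6.22 and 5.92 in first-actuated roots, and 5.79, 5.98 and 5.73 on the ground, and the groups overlapped. AT5G51890 ranged from 7.31 to 7.97 on the ground, and its flown arrays, at 7.34 to 7.58, lay within that range. PRX52 was dim, at 2.73 to 3.25 on all arrays. AT4G36430, the member of that list farthest from ground, differed by 0.69 ± 0.18 in first-actuated roots (limma adjusted p = 0.0603). Its first-actuated arrays, at 6.39, 5.80 and 5.74, lay above the ground arrays, at 5.11, 5.35 and 5.40. Groups did not overlap in 2 of the 9 genes between first-actuated and ground roots, 22.2% beside 20.4% of all probe sets. The same count held between the flown groups, 22.2% beside 21.8%, and it was 0 between last-actuated and ground roots, beside 16.6%. AT4G33420, whose product is also linked to lignin, was not in that list.

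The UPB1 target list held AT4G11290, AT4G16270 and AT5G17820, with first-actuated minus ground differences of 0.32, 0.46 and 0.25. Against ground 0 of 3 were called by limma, beside 4.89% of all named probe sets in first-actuated roots and 1.81% in last-actuated roots. At an unadjusted p under 0.05 there was 1 in first-actuated roots and 0 in last-actuated roots, with no share of all probe sets computed. UPB1 itself had 5.55, 5.72 and 5.68 in last-actuated roots, 5.52, 5.34 and 5.51 in first-actuated roots, and 5.73, 5.83 and 6.02 on the ground. Its first-actuated arrays were below the ground arrays, by -0.40 ± 0.10, just short of the threshold (limma adjusted p = 0.0536). In the list of pathogen and wall damage peroxidases, 5 of 7 were measured, and Prx37 and AT5G39580 fell in first-actuated roots while AT1G14550, AT2G37130 and AT5G64120 did not pass. Prx37 and AT5G39580 were also the calls between the flown groups, higher in last-actuated roots, and AT5G39580 rose in last-actuated roots against ground. Of all named probe sets 2.64% were called down in first-actuated roots against ground. The upward shares were 3.58% between the flown groups and 0.927% in last-actuated roots against ground.

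The 39 genes called nowhere included 17 of the 18 with a mean under 4. Their differences from ground lay between -0.81 (AT3G49960) and 0.92 (AT2G43480) in first-actuated roots and between -0.51 (AT2G18980) and 0.47 (AT2G18140) in last-actuated roots. AT3G49960 was uneven on the ground, at 6.56, 6.15 and 7.30, against 5.87, 5.87 and 5.85 in first-actuated roots. Of the 13 further family loci, 11 were measured, 10 of them with a mean under 4. PRXCA (AT3G49110) was the sole call among these. It was dim, at 2.56, 2.73 and 2.51 in first-actuated roots against 2.00, 1.94 and 1.96 on the ground. PRXCA differed by 0.64 ± 0.12 (limma adjusted p = 0.0157), and the call was lost without first-actuated replicate 2 or ground replicate 2 or 3 (adjusted p up to 0.0601).

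Few genes that act beside the peroxidases could be measured. Of 18 genes of monolignol synthesis, which makes the substrates of lignin, 2 were measured, and both rose in first-actuated roots. Of all named probe sets 2.25% were called up between first-actuated and ground roots and 3.15% down between the flown groups. With 2 of 18 genes measured, the pair does not describe the pathway. CCR2 (AT1G80820), a cinnamoyl-CoA reductase gene, had 8.25, 7.84 and 8.28 in last-actuated roots, 9.67, 9.26 and 9.28 in first-actuated roots, and 7.78, 8.11 and 7.98 on the ground. It rose 2.72-fold in first-actuated roots against ground (1.45 ± 0.15, limma adjusted p = 0.00075), and last-actuated minus first-actuated was -1.28 ± 0.15. HCT (AT5G48930), which encodes a hydroxycinnamoyl transferase, rose by 0.67 ± 0.09 in first-actuated roots (limma adjusted p = 0.00205) and was lower by log2 -0.60 ± 0.09 in last-actuated roots than in first-actuated roots.

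Of 10 respiratory burst oxidase genes 2 were measured. AT4G25090 had 6.89, 6.57 and 6.67 in last-actuated roots, 6.26, 5.95 and 6.06 in first-actuated roots, and 6.63, 6.69 and 6.58 on the ground. It fell by 0.54 ± 0.11 in first-actuated roots against ground (limma adjusted p = 0.0208), a call lost without first-actuated replicate 2 or 3 or any ground array (adjusted p up to 0.0728). It was higher by 0.62 ± 0.11 in last-actuated roots than in first-actuated roots (limma adjusted p = 0.00804). AT4G11230 was not called. Of all named probe sets 2.64% were called down between first-actuated and ground roots and 3.58% up between the flown groups.

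Of 18 extensin and related wall protein genes 10 were measured, and AT1G26240 was the sole call. It had 5.89, 4.94 and 5.11 in last-actuated roots, 5.01, 3.89 and 4.21 in first-actuated roots, and 2.50, 3.12 and 2.79 on the ground, where it was dim. It rose by 2.51 ± 0.31 in last-actuated roots (limma adjusted p = 0.00239) and by 1.57 ± 0.31 in first-actuated roots (limma adjusted p = 0.0181), the second lost without ground replicate 1 or 3 (adjusted p up to 0.0702). Of all named probe sets 4.89% were called between first-actuated and ground roots, 1.81% between last-actuated and ground roots and 6.73% between the flown groups. At such shares the 0 calls in the short lists that follow do not show that their genes were unchanged. Laccases, hydrogen peroxide scavengers and peroxidase regulators had 2 of 17, 2 of 11 and 3 of 4 genes measured and 0 calls by limma. At an unadjusted p under 0.05 there were 1, 0 and 2 in first-actuated roots against ground and 1, 0 and 0 in last-actuated roots against ground. Between the flown groups there were 1, 0 and 1. No share of all probe sets at that threshold was computed. None of the 6 Casparian strip protein or 7 superoxide dismutase genes listed is analysed here.

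Some marker genes of shoots and of roots also differed between the groups. Of 21 shoot markers 3 were measured, and their summed linear signal was 96.2 to 119 in last-actuated roots, 195 to 402 in first-actuated roots and 175 to 214 on the ground. LHB1B2, a light-harvesting gene, accounted for most of this and was lower in last-actuated roots than in first-actuated roots (-1.96 ± 0.28, limma adjusted p = 0.00224). Its arrays read 5.71, 6.15 and 5.95 in last-actuated roots, 7.15, 8.45 and 8.11 in first-actuated roots, and 7.22, 6.89 and 6.88 on the ground. LHB1B2 minus ground was -1.06 ± 0.28 in last-actuated roots (limma adjusted p = 0.102) and 0.90 ± 0.28 in first-actuated roots (limma adjusted p = 0.0974). LHCB4.1 fell by 0.47 ± 0.09 in last-actuated roots against ground (limma adjusted p = 0.0296), a call that held without first-actuated replicate 1 or 2 and was otherwise lost (adjusted p up to 0.111). Its first-actuated minus ground difference was -0.22, opposite in sign to that of LHB1B2, and LHCB4.2 lay between -0.03 and 0.05 in the 3 comparisons. Of 9 stele, cap and whole root markers 3 were measured, and BGLU22, a root beta-glucosidase gene, was higher by 0.59 ± 0.09 in last-actuated roots than in first-actuated roots (limma adjusted p = 0.00379). The other two were not called between the flown groups, with 0.35 ± 0.11 for BGLU21 (limma adjusted p = 0.0816) and -0.21 ± 0.09 for PYK10 (limma adjusted p = 0.259). Of 10 root hair markers EXPA7 and EXPA18 were measured and were not called. EXPA7 differed by -0.59 ± 0.15 in first-actuated roots against ground (limma adjusted p = 0.0584). The part of these markers in the peroxidase results was not tested.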

How the data were processed

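The deposited table held log2 values of 38408 probe sets on 9 arrays, made by the authors. The tools were RMA, oligo, limma and R 4.0.0 and the build TAIR10, per the submitters' processing notes. RMA as usually run removes a change shared by most transcripts. Slides, scan dates and detection calls were not used here, and the number of arrays limits the precision.

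Gene names came from the platform annotation and from a RefSeq gene table (TAIR10.1), of which no coordinates are printed. Of 17481 named probe sets, 16722 had exactly 1 gene. limma 3.58.1 in R 4.3.3 (lmFit, eBayes) was fitted to all 9 arrays with no covariate, and intervals are 95%. The test was checked on simulated data, where it called 18 of 50 probe sets with a true log2 change of 0.5. At a true change of 1.0 it called 45 of 50. A gene that was not called can therefore still differ by about 0.5.

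Named genes were the bright or called peroxidase genes, their measured neighbours, and called genes of the other lists. Uncalled genes with a mean under 8 and uncalled genes of other lists were named after their values were seen. Members, lists and rules were chosen with earlier results of these data known. Alternatives varied the arrays, probe sets, filter, variance prior, normalization and replicate block.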

Additional observations from a re-analysis of the deposited data

Results flagged for a closer look

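The difference between the changes of last-actuated and first-actuated roots against ground, which is last-actuated minus first-actuated, was called by limma for 12 peroxidase genes and 5 other listed genes. Higher in last-actuated roots were AT1G49570 (2.59), AT5G19890 (1.98), AT5G39580 (1.09), Prx37 (AT4G08770, 0.96), AT5G64100 (0.76), AT1G71695 (0.71) and AT4G37530 (0.52), on the log2 scale. Lower in last-actuated roots were AT2G39040 (-1.03), AT4G26010 (-0.83), AT4G16270 (-0.66), AT1G68850 (-0.57) and AT5G15180 (-0.42). Among the other genes the difference was -1.28 for CCR2 (AT1G80820), -0.60 for HCT (AT5G48930), 0.62 for AT4G25090, -1.96 for LHB1B2 (AT2G34420) and 0.59 for BGLU22 (AT1G66280). Groups of 3 arrays are too small for a test of single outlying arrays.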

How the results depend on the processing

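Leaving out 1 array at a time gave 7 to 10 called peroxidase genes between first-actuated and ground roots (10 with all arrays), 0 to 3 between last-actuated and ground roots (3), 7 to 10 between the flown groups (12) and 9 to 13 by the F test (11). Over all probe sets the ranges were 549 to 807 (855), 179 to 333 (316) and 724 to 1119 (1177). Fitting only the groups compared gave 7 peroxidase genes between the flown groups, 6 higher and 1 lower, and 512 probe sets between first-actuated and ground roots. Testing all probe sets, named or not, gave 1 peroxidase gene between last-actuated and ground roots and 1794 probe sets between the flown groups. With the replicate number as a block 1 peroxidase gene was called between last-actuated and ground roots, 8 between first-actuated and ground roots and 11 between the flown groups. Same-numbered arrays of different groups deviated from their group means with correlations of -0.119 to 0.057. For arrays of different numbers the range was -0.086 to 0.084. This gave no sign that the numbers pair the samples, but 3 arrays in each group cannot exclude it. Of 37 called results on named genes, 16 were lost without at least 1 array, 12 under at least 1 other setting and 0 turned direction, and 21 held throughout. Of 71 results not called, 7 were called under some setting. A sign change between values that were not called was not counted as a turn. Averaging the probe sets of a locus changed no peroxidase value, since each locus had 1. The cause of these differences was not tested.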
